A study of Mus musculus with 41 samples.

Results

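The sites described here are the places where Flag-tagged LSD1n and Flag-tagged LSD1c were called by chromatin immunoprecipitation with sequencing in unstimulated mouse cortical neurons. Sites were taken from the KCl 0 h list of each isoform, kept on chromosomes 1 to 19, and dropped where they overlapped peaks of all 8 antibody targets of the series. This left 734 of 940 LSD1n sites and 3755 of 3922 LSD1c sites. The 4489 sites come from a series of 27 peak lists with 488881 peaks in all.

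The study concerns the binding of LSD1 and of its neuronal form. Primary cortical neurons were kept 10 days in vitro, and the KCl treatment used 55 mM. The Flag libraries came from neurons labelled R26/LSD1n and R26/LSD1c and were made with the Flag M2 antibody. Histone marks and RNA polymerase II (Pol II) came from neurons labelled LSD1n WT at 0 h, and the untagged LSD1 antibody list from wild type neurons at 0 h, so marks and Flag sites were not read in the same cultures.

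LSD1 (Kdm1a) removes methyl groups from mono- and dimethylated lysine 4 of histone H3 and works in a complex with CoREST. LSD1n is a splice form made in neurons that carries a short extra exon and has been described as acting on other residues, among them lysine 20 of histone H4; LSD1c is the form without that exon. H3K4me2 marks promoters and enhancers, H3K4me1 mainly enhancers, H3K36me3 the bodies of transcribed genes, and H4K20me1 is often found over transcribed gene bodies.

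Each isoform had 1 library at rest, so no difference between them was tested. Bracketed ranges are 95% intervals: exact Clopper-Pearson for shares, Newcombe for differences in percentage points, and exact conditional Poisson for the ratio of numbers. They cover counting error only and treat sites as independent. The LSD1n library had 31804648 tags, of which 0.0806% lay in its peaks, and the LSD1c library 27416097 tags with 0.257% in peaks. The title prefixes of the Flag libraries differ, and the LSD1n library shares its prefix with the wild type LSD1 antibody and H4K20me1 libraries at 0 h, and isoform cannot be told apart from prefix. A Flag list from untagged neurons was not used here, and binding in fewer cells and weaker binding per cell cannot be told apart in bulk cultures. Cell type markers were not checked in these peak lists.

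LSD1n had the far shorter list, and about 1 in 2 of its sites lay beside an LSD1c site. The log2 ratio of site numbers, LSD1n over LSD1c, was -2.35 (-2.47 to -2.24), and -1.67 when the share of tags in peaks was used in place of numbers. Of the LSD1n sites, 373 (50.8%, 47.1 to 54.5) had an LSD1c site within 1 kb, and of the LSD1c sites 378 (10.1%, 9.12 to 11.1) had an LSD1n site within 1 kb. The lists differ so much in length that these shares cannot be read against each other, and among the first 800 LSD1c sites the share was 19.9%. With both lists cut to their first 400 sites it was 26.3% of LSD1n and 24.5% of LSD1c sites. The filter itself removed sites bound by both isoforms: of 68 LSD1n sites dropped, 67 overlapped an LSD1c site, and with them kept 55.5% of LSD1n sites were shared.

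Where the isoforms met, they met closely. The centres of a shared LSD1n site and its nearest LSD1c site lay a median of 94 bp apart (quartiles 16 and 262 bp), and 50.9% of pairs lay within 100 bp. Across the 373 pairs, the places of the partners in their lists had a Spearman rho of 0.55, a description over pairs from the same 2 libraries. The median partner stood at place 991 of the 3755 LSD1c sites, and 31.1% of partners were among the first 400. Beyond 1 kb few further LSD1n sites gained a partner: 53.5% had one within 5 kb and 55.0% within 10 kb. The median distance to the other isoform was 701 bp from an LSD1n site and 596373 bp from an LSD1c site, and 3.54% of LSD1n sites and 38.1% of LSD1c sites had no partner within 1 Mb.

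**Figure D1:**
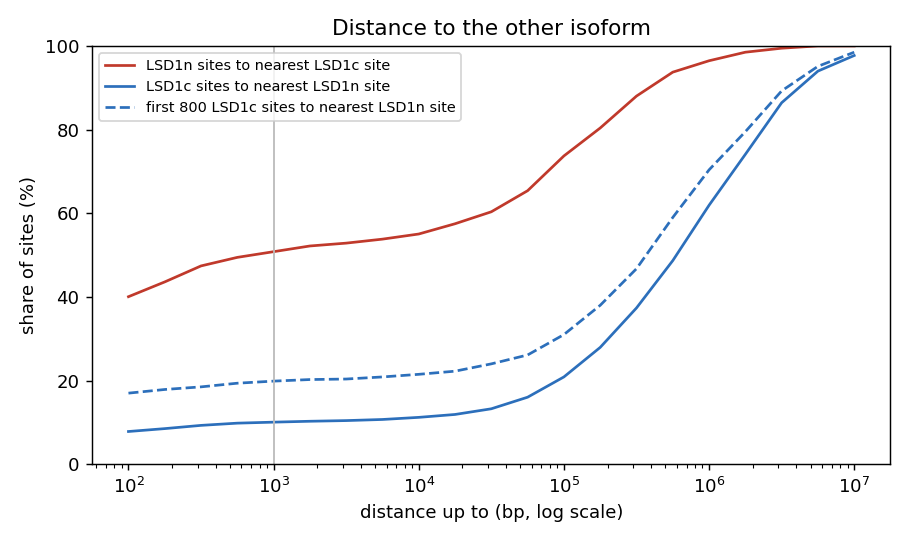
Cumulative share of sites (y axis, %) with the other isoform at or below a distance (x axis, bp, log scale), for LSD1n sites, all LSD1c sites and the first 800 LSD1c sites; the vertical line stands at 1 kb. The LSD1n curve is at 50.8% at 1 kb and 55.0% at 10 kb, above the LSD1c curves at 10.1% and 19.9% at 1 kb.

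Most sites of both isoforms lay in H3K4me2 regions, LSD1n sites less often. H3K4me2 overlapped 512 LSD1n sites (69.8%) and 3105 LSD1c sites (82.7%), a difference of -12.9 points (-16.6 to -9.49). It was -11.9 points against the first 800 LSD1c sites (81.6%), and 60.3% against 78.8% with the first 400 of each. Pol II, which marks active promoters and genes being transcribed, overlapped 39.8% of LSD1n and 54.3% of LSD1c sites, a difference of -14.5 points, and -18.5 points against the first 800 LSD1c sites. H3K4me2 with Pol II, the pair found at active promoters, overlapped 31.6% of LSD1n and 46.6% of LSD1c sites. H3K4me2 without Pol II was near equal over whole lists, at 38.1% (34.6 to 41.8) and 36.1%. Among the first 800 LSD1c sites it was lower, at 32.1% (28.9 to 35.5). With the first 400 of each it was 35.75% for LSD1n and 31.5% for LSD1c.

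The 3 other marks were found at fewer sites. For H4K20me1 the order of the isoforms depended on list length, and for H3K36me3 and H3K4me1 LSD1n stayed higher at each length, by amounts whose intervals held 0 once lists were shortened. H4K20me1 overlapped 16.1% of LSD1n and 12.9% of LSD1c sites (3.13 points, 0.416 to 6.15), while the first 800 LSD1c sites stood at 19.4%, above LSD1n. H3K36me3 overlapped 7.08% of LSD1n and 2.02% of LSD1c sites, and 5.88% of the first 800 LSD1c sites (1.21 points, -1.26 to 3.74). H3K4me1 overlapped 14.7% of LSD1n, 11.5% of LSD1c and 11.6% of the first 800 LSD1c sites (3.09 points against these, -0.295 to 6.51). Sites outside all 5 lists (the 4 marks and Pol II) made up 16.5% of LSD1n sites (121) and 7.03% of LSD1c sites (264), with 6.50% among the first 800 LSD1c sites.

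**Figure D2:**
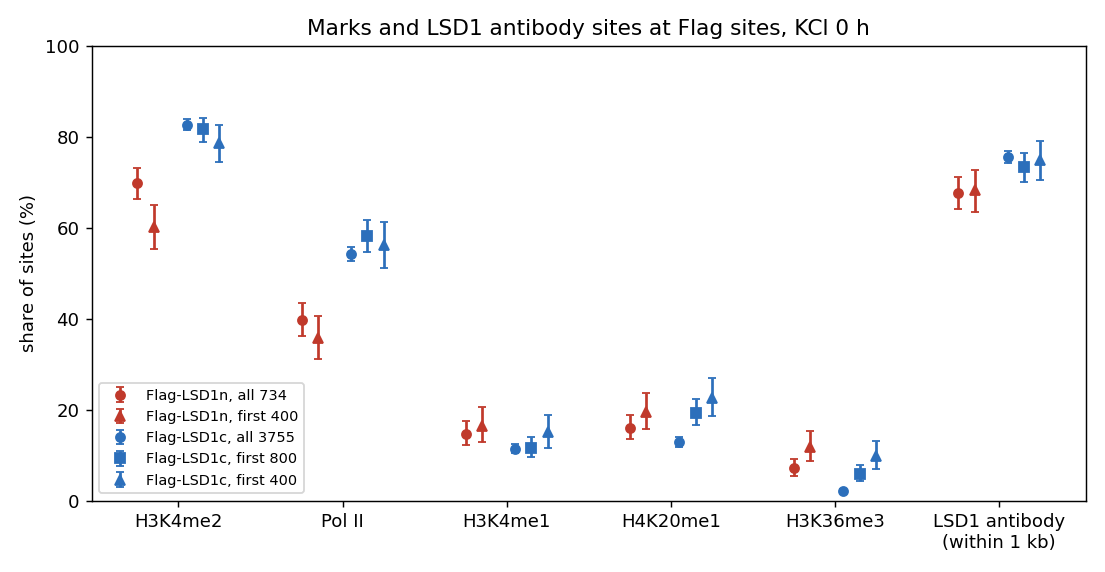
Share of sites (y axis, %) overlapping each mark or Pol II, or within 1 kb of an LSD1 antibody site, for LSD1n (red) and LSD1c (blue); circles are whole lists, squares the first 800 and triangles the first 400 sites, with exact 95% intervals for counting error. H3K4me2 and Pol II are lower for LSD1n at each length, while for H4K20me1 the first 800 LSD1c sites (19.4%) lie above LSD1n (16.1%).

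The place of a site in its list went with its marks. The deposited score is the same in every entry, so strength could not be read from it, and only the order was used. Among the first 100 sites of LSD1n, 42 overlapped H3K4me2, 41 H3K4me1, 41 H4K20me1, 38 H3K36me3 and 20 Pol II. Among the first 100 of LSD1c the numbers were 72, 32, 40, 34 and 37. From place 101 on, H3K36me3 was at 2.21% of 634 LSD1n and 1.15% of 3655 LSD1c sites, so 38 of the 52 LSD1n sites with H3K36me3 stood among the first 100. H4K20me1 from place 101 on was at 12.1% of LSD1n and 12.2% of LSD1c sites (-0.057 points, -2.62 to 2.90), and H3K4me1 at 10.6% and 10.9%. Against LSD1c sites 101 to 800 alone, LSD1n was lower for H4K20me1 (12.1% and 16.4%) and higher for H3K4me1 (10.6% and 8.71%; 1.85 points, -1.32 to 5.08).

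The H3K4me2 and Pol II differences remained after those sites were left out. From place 101 on, H3K4me2 was at 74.1% of LSD1n and 83.0% of LSD1c sites (-8.85 points, -12.6 to -5.36), and Pol II at 42.9% and 54.7% (-11.8 points, -16.0 to -7.64). The H3K4me2 shares drew together further down: in the 3 blocks from place 401 to 700, H3K4me2 overlapped 83, 78 and 82 of 100 LSD1n sites and 85, 88 and 84 LSD1c sites. Pol II did not draw together there, with 39, 49 and 50 LSD1n sites against 62, 67 and 60 LSD1c sites.

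**Figure D3:**
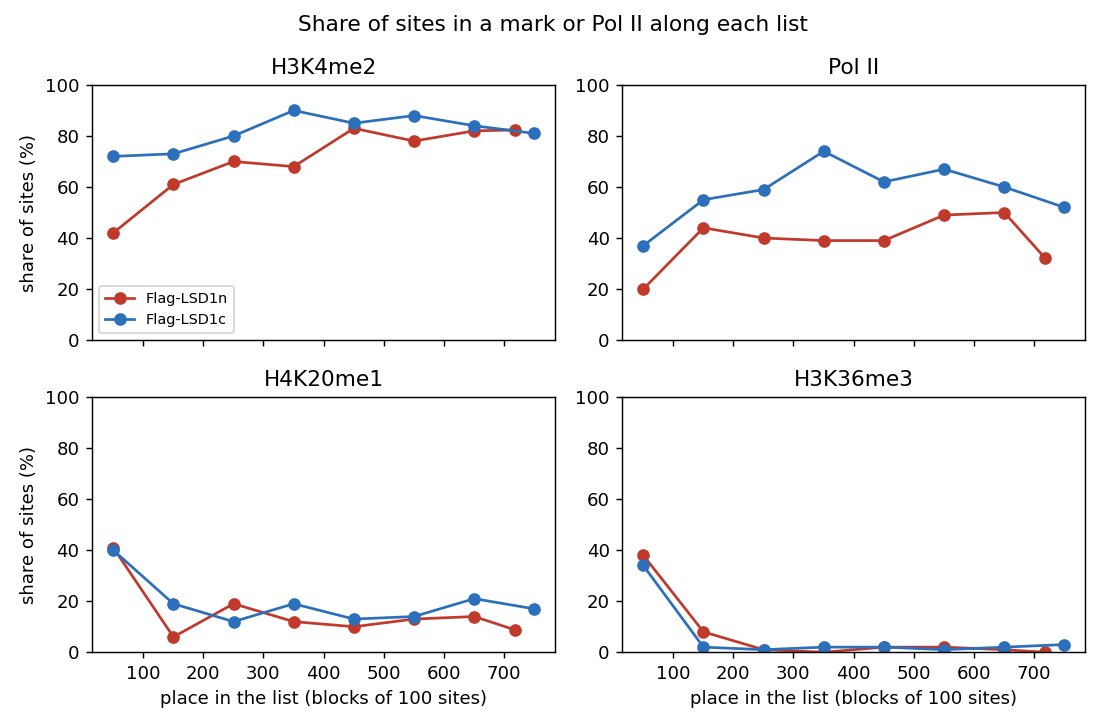
Share of sites (y axis, %) overlapping a mark or Pol II in successive blocks of 100 sites (x axis, place in the list) for LSD1n and the first 800 sites of LSD1c; the last LSD1n block holds 34 sites. H3K36me3 is at 38% and 34% in the first block and at most 8% after it, H3K4me2 is lowest in the first LSD1n block (42%), and Pol II is lower for LSD1n in every block.

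The first 100 sites of both lists were in part the same places. Of the first 100 LSD1n sites, 82 lay within 1 kb of some LSD1c site and 59 within 1 kb of one of the first 100 LSD1c sites. Of the first 100 LSD1c sites, 60 lay within 1 kb of some LSD1n site and 54 within 1 kb of one of the first 100. All 4 histone marks overlapped 20 of the first 100 LSD1n sites and 21 of the first 100 LSD1c sites, and 0 of the 634 later LSD1n and 3 of the 3655 later LSD1c sites. Of the 38 early LSD1n sites with H3K36me3, 29 also overlapped H4K20me1, 29 H3K4me1 and 4 Pol II. Of the 34 such LSD1c sites, 29 overlapped H4K20me1, 27 H3K4me1 and 3 Pol II. These low Pol II numbers are partly set by the filter. A site with both isoforms, the antibody and all 4 marks stays only where no Pol II list overlaps it. Of the 68 LSD1n sites dropped, 61 overlapped Pol II and 48 stood among the first 100 of the deposited list. For the 71 LSD1c sites dropped these numbers were 60 and 52. Among the early LSD1n sites without H3K36me3, 29.0% of 62 overlapped H3K4me2, against 69.7% of 66 for LSD1c. Positions before 3.2 Mb, close to where the assembled sequence of a mouse autosome begins, held 13 of the first 100 LSD1n sites and 9 of the first 100 LSD1c sites, against 1.74% and 0.164% of later sites. Sites with 7 of the 8 targets, 1 short of the filter, numbered 44 for LSD1n (5.99% of its sites) and 90 for LSD1c (2.40%). Of the 44 LSD1n sites, 22 lacked Pol II and 10 lacked H3K36me3. Of the 90 LSD1c sites, 26 lacked Pol II and 48 lacked H3K36me3.

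The first sites of each list show this in single places (mm9, counted from 1). The first LSD1n site, chr6:125120950-125121150, overlapped an LSD1c site and lay within 1 kb of a wild type LSD1 antibody site, but in none of the 4 marks nor Pol II. The second, chr9:3030080-3030280, lay in an H3K4me2 region of 17729 bp and in H3K4me1, H3K36me3 and H4K20me1 regions of 1113, 3547 and 3535 bp, and the first LSD1c site lay 1 bp before it. The next, chr5:115372392-115372592, lay in all 4 marks in regions of 501 to 661 bp. Both isoforms were thus called at the same spot in these places, without Pol II.

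The first LSD1n sites called without LSD1c stood near LSD1c sites all the same. The first LSD1n site with no LSD1c site within 1 kb, chr9:3000803-3001003, had one 7331 bp away and overlapped 5 targets. The next, chr8:19923999-19924199, stood 1026 bp from an LSD1c site, just past the 1 kb rule. Of the first 5 such LSD1n sites none was further than 7331 bp from LSD1c. Among the first 5 LSD1c sites alone, chr1:90173938-90174138 was the furthest from LSD1n, at 1694919 bp, and overlapped all 4 marks and Pol II.

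Over whole lists, shared sites had more H4K20me1 and H3K36me3 than sites of 1 isoform alone. Most of this contrast was gone once the first 100 sites of both lists were left out. LSD1n sites had near equal H3K4me2 whether shared (70.8%) or alone (68.7%; 2.08 points, -4.55 to 8.70), and near equal Pol II (39.9% and 39.6%). LSD1c sites alone had more of both: H3K4me2 at 84.0% alone and 71.4% shared, and Pol II at 55.5% and 43.1%. Over whole lists the interval of each LSD1c difference excluded 0 (-17.4 to -8.02 points for H3K4me2 and -17.6 to -7.09 for Pol II, shared minus alone). H4K20me1 went the other way in both lists, at 21.2% of shared and 10.8% of lone LSD1n sites, and 20.9% and 12.1% of LSD1c sites. H3K36me3 was at 11.0% and 3.05% of LSD1n sites, and 10.6% and 1.07% of LSD1c sites. Shared sites stood early in the lists (82 of the first 100 and 45.9% of later LSD1n sites, 60 of the first 100 and 8.70% of later LSD1c sites). With the first 100 sites of both lists left out, H3K36me3 was at 2.47% of shared and 1.99% of lone LSD1n sites, and at 2.39% and 1.04% of LSD1c sites. H4K20me1 was then at 13.8% and 10.8% of LSD1n sites and 13.3% and 12.1% of LSD1c sites. H3K4me2 was at 78.4% (73.2 to 83.1) of shared and 70.7% (65.6 to 75.4) of lone LSD1n sites, and at 78.2% (73.0 to 82.8) and 83.4% (82.1 to 84.6) of LSD1c sites. Pol II was at 45.9% and 40.5% of LSD1n sites and 48.5% and 55.3% of LSD1c sites. The lower H3K4me2 and Pol II of shared against lone LSD1c sites thus kept its direction at a smaller size. For LSD1n the shared sites came out higher. The separate H3K4me2 intervals overlapped in both lists, but intervals of these later differences were not computed. The filter itself lowers both at shared sites: of 71 LSD1c sites dropped, 68 had LSD1n within 1 kb, 66 overlapped H3K4me2 and 60 Pol II. With such sites kept, H3K4me2 over whole lists was at 74.8% of shared and 84.0% of lone LSD1c sites. For LSD1n it was then at 74.4% and 68.9%.

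**Figure D4:**
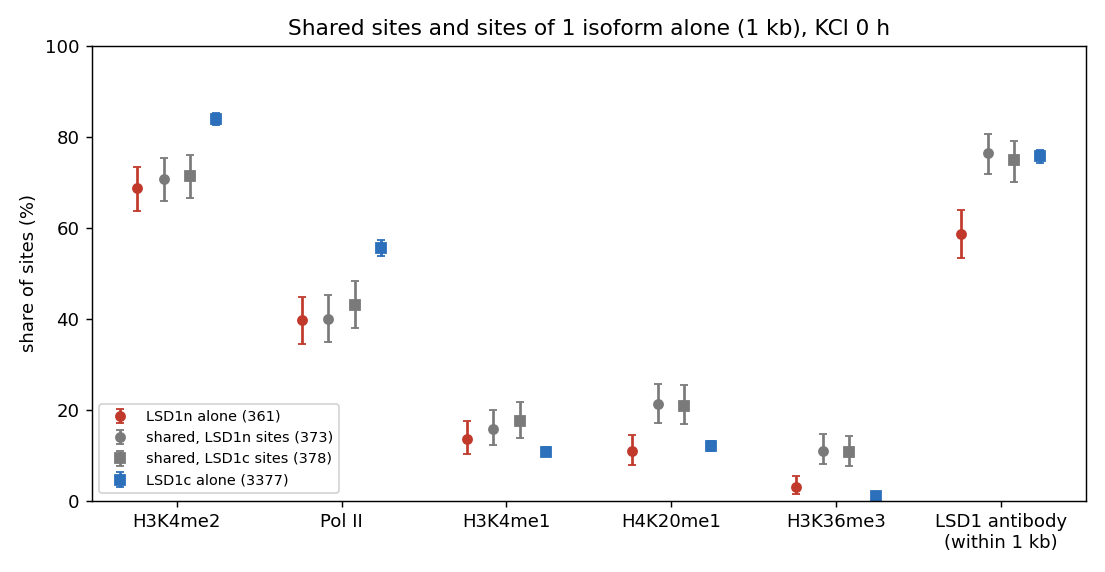
Share of sites (y axis, %) with each mark, Pol II or an LSD1 antibody site within 1 kb, for LSD1n alone, shared sites counted from either list, and LSD1c alone, with exact 95% intervals for counting error. LSD1c alone is highest for H3K4me2 (84.0%) and Pol II (55.5%), shared sites are highest for H4K20me1 and H3K36me3 over these whole lists, and LSD1n alone is lowest for the antibody (58.7%).

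Most Flag sites had a site of the untagged LSD1 antibody, which does not tell the isoforms apart, within 1 kb. The share was 67.7% for LSD1n and 75.6% for LSD1c (-7.92 points). Against the first 800 LSD1c sites (73.4%) the difference was -5.66 points (-10.2 to -1.10). The share was 76.4% for shared LSD1n sites, 58.7% for LSD1n sites alone and 75.7% for LSD1c sites alone. In the antibody list from LSD1n WT neurons at 0 h, the shares were 59.8% and 63.9%. In the list from LSD1n KO neurons, whose KCl time the labels do not give, they were 59.8% and 61.5%. At least 1 of these 3 lists held 83.8% of LSD1n and 86.6% of LSD1c sites. Against the first 800 LSD1c sites, LSD1n differed by -2.94 points (-7.80 to 1.93) in the LSD1n WT list. In the KO list it differed by 0.559 points (-4.35 to 5.46), and in any of the 3 lists by -0.963 points (-4.63 to 2.68). When an overlap of 1 bp was asked for in place of 1 kb, only 23.3% of LSD1n and 21.6% of LSD1c sites had one. The order reversed, with LSD1n 1.70 points higher (-1.51 to 5.14). From place 101 on the order did not reverse, at 16.7% and 20.5%, with 17.6% at LSD1c sites 101 to 800.

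Sites lay inside H3K4me2 regions and at the rims of H4K20me1 regions. Of LSD1n sites in H3K4me2, 63.7% lay in the central 50% of the region's width, and of LSD1c sites 65.7%. For H4K20me1 the shares were 10.2% of 118 LSD1n and 13.2% of 486 LSD1c sites, which stood at a median of 0.89 and 0.90 of the way from the centre to the edge. Many more sites lay beside an H4K20me1 region than in one: 30.7% of LSD1n and 34.7% of LSD1c sites were outside a region but within 1 kb of it. Counting these, H4K20me1 was within 1 kb of 46.7% (43.1 to 50.4) of LSD1n and 47.6% of LSD1c sites over whole lists. Among the first 800 LSD1c sites it was higher, at 57.25% (53.7 to 60.7). H3K4me1 too lay more often beside a site than over it, with 47.4% and 52.7% within 1 kb over whole lists. LSD1c was thus higher within 1 kb and LSD1n higher for overlap. Pol II stood within 1 kb of 74.1% of LSD1n and 89.3% of LSD1c sites.

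The regions at the sites were wide. H3K4me2 regions at LSD1n and LSD1c sites had median widths of 1814 and 1777 bp, against 1185 bp over all 16358 autosomal H3K4me2 regions. Those of H4K20me1 had a median of 2684 bp at LSD1n sites, against 767 bp over all. A wide region is more easily overlapped, and this was not adjusted for.

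**Figure D5:**
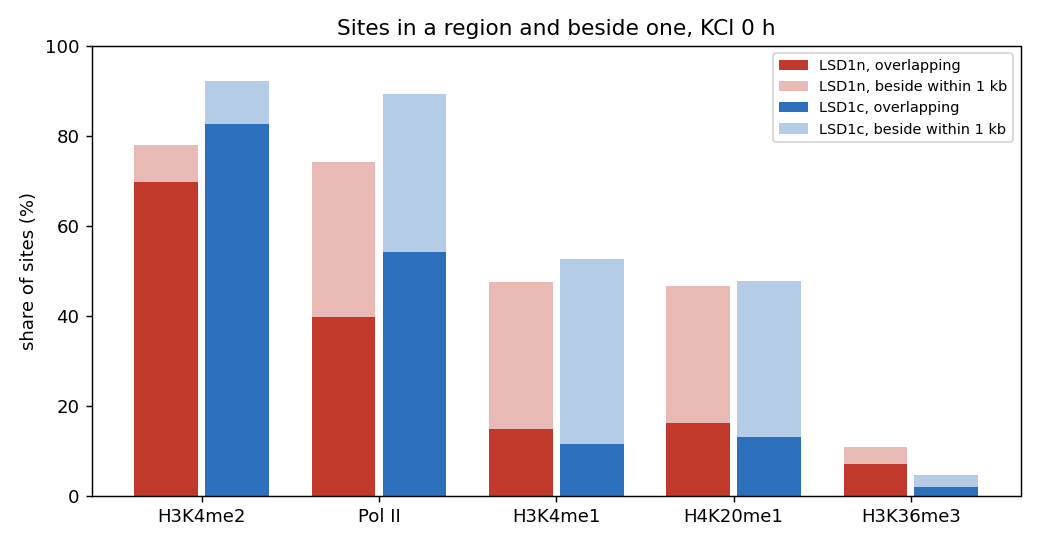
Share of sites (y axis, %) overlapping a region (dark) and outside it but within 1 kb (light), for LSD1n (red) and LSD1c (blue). Whole lists are shown. H4K20me1 overlaps 16.1% and 12.9% and lies beside a further 30.7% and 34.7%, so its stacked bars end near each other. For the first 800 LSD1c sites, not drawn, the H4K20me1 bar would end at 57.25%. The Pol II bars end at 74.1% and 89.3%.

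H4K20me1 at the same sites was more frequent in the list from LSD1n KO neurons, with 1 library per genotype and no test. It overlapped 118 of the 734 LSD1n sites in WT and 191 in KO (1.62-fold), and 12.9% and 18.0% of LSD1c sites (1.39-fold), while the autosomal length covered by the mark went from 49.6 to 92.9 Mb (1.87-fold). The ratio at the sites was thus below that of the covered length for both isoforms. From place 101 on the KO shares were 20.8% of LSD1n and 17.1% of LSD1c sites. At LSD1c sites 101 to 800 the KO share was 20.3%, near that of LSD1n (0.534 points, -3.79 to 4.89). H3K36me3 covered less of the genome in KO (9.13 Mb in WT and 2.53 Mb in KO), yet over whole lists was at 8.04% of LSD1n sites in KO against 7.08% in WT. For LSD1c sites it was at 2.00% and 2.02%. Of the 59 LSD1n sites with H3K36me3 in KO, 48 stood among the first 100. From place 101 on the KO share was the lower, at 1.74% against 2.21% of LSD1n and 0.958% against 1.15% of LSD1c sites.

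About 1 in 2 sites was called again after 1 h in KCl. An LSD1n site at 1 h lay within 1 kb of 56.7% of LSD1n sites, and an LSD1c site at 1 h of 55.0%. For LSD1c sites at rest the shares were 58.5% in the LSD1c list and 49.9% in the LSD1n list at 1 h. For the first 800 LSD1c sites they were 66.75% and 57.75%. Against these 800, LSD1n sites differed by -11.7 points (-16.5 to -6.83) in the LSD1c list. In the LSD1n list they differed by -1.07 points (-6.02 to 3.87). The lists at 1 h also differ in length, with 5480 LSD1c and 4438 LSD1n sites as deposited. Shares differed by mark. LSD1n sites with H3K4me2 and Pol II were called again for LSD1n in 63.8% of 232 cases, those with H4K20me1 in 74.6% of 118, those with H3K4me1 in 50.9% of 108, and those in none of the 5 lists in 33.1% of 121. For LSD1c sites in the LSD1c list at 1 h these shares were 63.3%, 70.0%, 46.3% and 33.0%, so H3K4me1 sites stood below the list's own share for both isoforms. The 34 LSD1n sites overlapped by no other target had an LSD1n site within 1 kb at 1 h in 3 cases. The 58 such LSD1c sites had an LSD1c site at 1 h in 10 cases.

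By chromosome, LSD1n had a higher share of its sites than LSD1c on chromosomes 1 (8.17% and 5.81%) and 5 (9.95% and 7.62%) and a lower one on chromosome 15 (1.77% and 4.13%). Among the first 800 LSD1c sites chromosomes 1 and 5 held 7.88% and 9.63%, close to LSD1n, and chromosome 15 held 3.63%. Over whole lists, for the other 16 chromosomes the interval of the difference held 0. Sites stood alone in most cases: 9.40% of LSD1n and 7.30% of LSD1c sites had another site of the same list within 5 kb.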

How the data were processed

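Of 41 samples, 27 have peak lists. Per the submitters' processing notes the authors used Bowtie, HOMER and build mm9, with no versions given. Per the file headers, Flag, LSD1 and Pol II sites were called at 200 bp with at least 4-fold more tags than the surrounding 10 kb, and histone regions were stitched from 500 bp peaks, at a false discovery rate of 0.001. The deposited values are genomic positions in bp, and the deposited score is 1 in every entry. Overlap means at least 1 bp. Python 3.11.15 with scipy 1.17.1, numpy 2.4.6 and matplotlib 3.10.9 gave the shares, distances, intervals and figures, checked on simulated lists. The members, lists and comparisons were chosen with earlier results of these data known. The list blocks, the splits at place 101 and at 3.2 Mb, regions beside sites, the place in a region and the KO comparison were chosen after values were seen. Named sites are the first 5 in list order of each class and the first 3 with H3K36me3 or H4K20me1, of which the text gives some. The Pol II files name the opposite genotype to their labels, and groups follow the labels. No mm9 annotation was used here, so the planned gene lists, cell type markers and sequences were not run.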

Additional observations from a re-analysis of the deposited data

Results flagged for a closer look

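Chromosomes X and Y, left out of the comparisons, held 14.7% of the deposited LSD1n sites (90 and 48 sites) and 2.45% of the LSD1c sites (66 and 30). The LSD1n sites on X overlapped H3K4me2 in 18.9% and Pol II in 4.44% of cases, against 69.8% and 39.8% of the filtered autosomal sites, and H3K36me3 in 33.3% and H4K20me1 in 32.2%. LSD1c sites on X went the same way, with H3K4me2 at 34.8%, Pol II at 13.6%, H3K36me3 at 40.9% and H4K20me1 at 40.9%. Their filtered autosomal shares were 82.7%, 54.3%, 2.02% and 12.9%. An LSD1c site lay within 1 kb of 61.1% of the LSD1n sites on X and 64.6% of those on Y. At 1 h an LSD1n site was called again at 65.6% of the X sites and 75.0% of the Y sites. No explanation was tested.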

How the results depend on the processing

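The lower LSD1n shares of H3K4me2 and Pol II kept their direction under each alternative run for them. Adding chromosomes X and Y moved the log2 ratio of numbers to -2.15, the LSD1c shared part to 11.7%, and the differences to -19.5 points for H3K4me2, -19.4 for Pol II, 6.62 for H3K4me1 and 8.34 for H3K36me3. The share of tags in peaks gave a log2 ratio of -1.67. Keeping the sites of all 8 targets gave shared parts of 55.5% of LSD1n and 11.7% of LSD1c sites, and differences of 7.72 points for H3K4me1, 10.3 for H3K36me3 and 7.70 for H4K20me1; leaving out merged regions of all 8 targets gave 8.91% of LSD1c sites. With the first 800 sites the shared parts were 22.9% and 19.9%, and the differences 1.21 points for H3K36me3, -3.30 for H4K20me1 (reversed) and -18.5 for Pol II. With the first 400 they were 26.3% and 24.5%, and -18.5 points for H3K4me2, 2.0 for H3K36me3, -3.0 for H4K20me1 (reversed) and -20.5 for Pol II. Without the first 100 sites of each list, an alternative chosen after seeing the data, they were 44.6% and 8.02%, and -8.85 points for H3K4me2, -0.32 for H3K4me1 (reversed), 1.06 for H3K36me3 and -0.057 for H4K20me1 (reversed). With sites 101 to 800, also added, they were 12.8% and 11.3%, and -8.87, 1.85, 0.35, -4.28 (reversed) and -18.4 points for H3K4me2, H3K4me1, H3K36me3, H4K20me1 and Pol II. An overlap of 1 bp gave shared parts of 34.1% and 6.66% and an antibody difference of 1.70 points (reversed). Marks within 1 kb gave -5.26 points for H3K4me1 and -0.913 for H4K20me1, both reversed, and overlap of 50% of the site gave -8.77 for Pol II. The antibody difference was -4.05 points with the LSD1n WT list and -2.71 with the first 5000 antibody sites. The cause of these shifts was not tested. No paired analysis was possible because each group compared holds 1 library, and for the same reason no library could be left out. The LSD1n list has only 734 sites, so the first 800 is its whole list. The low share of tags in peaks limits which sites could be called at all.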
